A study of Rattus norvegicus with 4 samples.

Results

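In NR8383 cells, a macrophage line from rat lung, the transcription factor genes Tp63, Pax5, Ebf1, Foxj1, Hopx, Etv5, Dlx3 and Elf3, each typical of another cell lineage, gave a signal and are described here probe by probe. They were selected on their signal on these same arrays, so that their being detected is a description and no finding. All probes whose RefSeq transcript belongs to one of these genes were taken, which gave 16 probes for 8 genes, of 21109 named probes for 16581 genes on the array. The cells, which had gone through 20 passages, had met Printex90 carbon black particles for 4 h (0.9 cm2/cm2 in the labels, which also mark the exposure as ALI). One array was made from each of 4 biological replicates, and the untreated cells of the design were not analysed here. No value below is therefore a change caused by the particles.

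A level is the log2 of the probe's background-subtracted Cy3 intensity minus the 75th percentile of such values on the same array, so that 0 lies at that percentile. A probe is called detected on an array when the scanner software marked its spot as well above background. Levels of different probes depend on their sequence and are given side by side without being ranked. With 4 arrays, the precision is limited by their number. Markers of the labelled cell type were present, with every array showing 13 of 14 macrophage identity genes, among them the lysosomal glycoprotein gene Cd68 at 7.56 ± 0.21 (SD, n = 4). The exception was Adgre1, which was detected on 2 arrays. Of all named genes, 50.8% were detected on all 4 arrays.

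Lineage factors are DNA-binding proteins, or partners of such proteins, that switch on the gene programme of one cell type and are usually silent in others. Tp63 encodes the factor that maintains basal cells of stratified and airway epithelium. Foxj1 is the forkhead factor that drives the programme of motile cilia. Hopx is a small homeodomain protein that does not bind DNA itself and marks alveolar type I cells. Etv5 and Elf3 are ETS factors, Etv5 known in alveolar type II cells as an effector of fibroblast growth factor signalling and Elf3 in epithelial differentiation. Dlx3 is a homeobox factor of epidermis, tooth, bone and placenta. Pax5 and Ebf1 together commit lymphoid progenitors to the B cell lineage. In a macrophage, none of these programmes would be looked for.

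Of the 16 probes, 9 were detected on all 4 arrays, 2 on 3 arrays and 5 on none. The background for such a call was 49.1% of the named probes and 37.5% of all non-control probes. Pax5, Etv5, Dlx3 and Elf3 have a single probe each, so that no second probe can be set beside it, and 46.6% of all genes with 1 probe were detected. The other 4 genes have 12 probes between them, of which 5 were detected on all 4 arrays, and none of these genes had every probe detected, where 39.1% of all genes with several probes, including those with none detected, did. The members were chosen for having a signal, so nothing is read from these shares. A split of this kind is common on the array. Among the 2384 genes with more than 1 probe and at least 1 of them detected on all 4 arrays, 40.0% had a probe that was not.

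**Figure D1:**
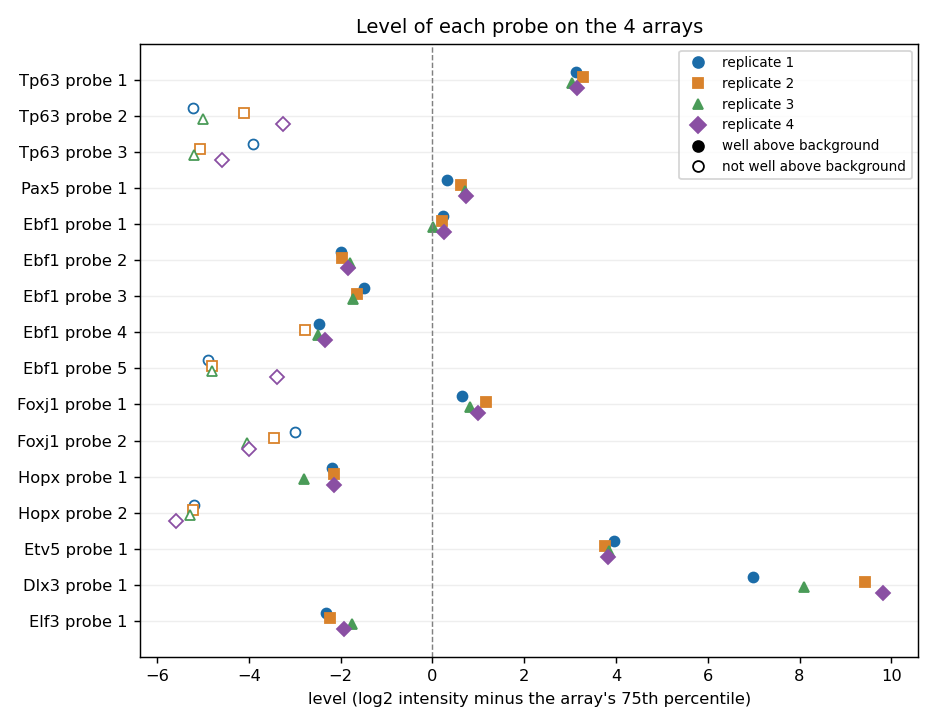
Level of each of the 16 probes on the 4 arrays (horizontal axis, log2 intensity minus the array's 75th percentile), with filled symbols for spots well above background and open symbols for spots that were not. Tp63 probe 1 lies between 3.03 and 3.28 while both other Tp63 probes lie below -3.25, and Dlx3 spreads from 6.98 to 9.82. Replicate 4 of Ebf1 probe 3 was left out as a non-uniform spot.

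The sequences of the array probes were not used here. In their place, the 250 bases before the annotated start were taken from RefSeq (assembly GRCr8) for the 5 members that matched, namely Tp63, Ebf1, Hopx, Etv5 and Elf3. The number of CG dinucleotides in this window was counted, since promoters rich in CG tend to belong to widely expressed genes and promoters poor in CG to tissue-restricted ones. The motif CG reads the same on both strands. Tp63, with the fewest of the 5, Hopx, and Etv5, with the most, are shown in lower case with each CG in capitals.
Tp63, minus strand, chr11:88554178-88554427: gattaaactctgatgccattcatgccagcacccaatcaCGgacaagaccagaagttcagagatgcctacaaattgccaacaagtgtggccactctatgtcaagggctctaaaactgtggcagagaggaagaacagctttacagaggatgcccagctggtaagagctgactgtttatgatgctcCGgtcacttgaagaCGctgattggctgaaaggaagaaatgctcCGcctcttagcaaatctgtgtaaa
Hopx, plus strand, chr14:31429163-31429412: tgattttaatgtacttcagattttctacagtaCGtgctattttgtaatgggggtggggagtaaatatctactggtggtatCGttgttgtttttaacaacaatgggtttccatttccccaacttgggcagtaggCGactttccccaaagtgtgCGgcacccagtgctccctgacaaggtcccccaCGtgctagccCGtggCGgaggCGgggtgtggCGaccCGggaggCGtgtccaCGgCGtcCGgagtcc
Etv5, plus strand, chr11:92113013-92113262: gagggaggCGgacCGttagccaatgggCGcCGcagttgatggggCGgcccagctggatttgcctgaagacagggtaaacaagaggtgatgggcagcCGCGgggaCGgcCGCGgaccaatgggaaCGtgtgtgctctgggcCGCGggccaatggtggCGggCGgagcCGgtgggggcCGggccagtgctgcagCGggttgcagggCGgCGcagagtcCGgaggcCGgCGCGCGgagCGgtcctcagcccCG

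The Tp63 window holds 4 CG dinucleotides, the Hopx window 14 and the Etv5 window 27. Ebf1 has 5 and Elf3 has 6, against a median of 12 over the 13555 named genes with such a sequence. Fewer CG than in the member's own window were found in 24.2% of these windows for Tp63, 28.9% for Ebf1, 32.8% for Elf3, 55.3% for Hopx and 88.3% for Etv5. Across all of these genes the share detected on all 4 arrays followed the CG count. It was 22.3% of 3915 genes with 0 to 4 CG, 42.2% of 2060 genes with 5 to 9, 68.6% of 3946 genes with 10 to 19 and 71.4% of 3634 genes with 20 or more. The Tp63 window belongs to the first of these classes and the Etv5 window to the last. With 1 window per gene, although RefSeq lists 11 transcripts for Tp63 and 2 for Etv5, the class is that of the window. Since both genes were chosen for their signal, nothing is read from their own detection. This is a count over genes, which are not independent replicates, and it says nothing of a factor that binds there.

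Tp63, the basal cell factor, had 1 of its 3 probes detected. Probe 1 (A_64_P008351, designed on NM_001127341) had levels of 3.13, 3.28, 3.03 and 3.16 on replicates 1 to 4, with a mean of 3.15 ± 0.10 (SD, n = 4). Probe 2 (A_44_P1111061, on XM_006248500) read -5.23, -4.11, -5.0 and -3.26, and probe 3 (A_44_P1082853, on NM_019221) read -3.91, -5.07, -5.21 and -4.59. One probe was thus detected on every array and the other two on none, and no array departed from this. The 3 probes are annotated to 3 different transcripts of the gene, of 11 that RefSeq lists. In processed intensity, probe 1 gave 869, 813, 825 and 1132, against no more than 13.3 for probe 2 and 6.63 for probe 3 on any array.

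The same split was rare among genes with as many probes and a like brightest probe. These genes were not matched on whether their probes lie on different transcripts, as those of Tp63 do. Of 102 other genes with 3 probes whose brightest detected probe had a mean level within 1 of that of Tp63, 6 (5.88%) had no second probe detected, and 67 had all 3 detected. This comparison with like genes was added after the values were seen, and with a window of 0.5 the share was 3.85%. Over all 536 genes with 3 probes, of any level, 92 (17.2%) had exactly 1 probe detected and 153 (28.5%) had none. The source of the split was not tested. The related gene Tp73 was detected on no array.

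Of 8 measured basal cell companions of Tp63, 2 were detected on all 4 arrays, the basal keratin gene Krt14 at -2.96 ± 0.24 and the hemidesmosome integrin gene Itgb4 at -0.29 ± 0.08 (SD, n = 4 for both). The share for all named genes was 50.8%. The other 6, among them Krt5, the defining keratin of basal cells, were detected on 1 to 3 arrays. This count depends on the detection rule. With the positive and significant flag 6 of the 8 were detected, against 61.7% of all named genes, and above the highest negative-control spot 5 of the 8, against 60.0%.

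Foxj1, the cilia factor, has 2 probes designed on the same transcript, and they differed in detection on each array. Probe 1 (A_44_P1159706) had levels of 0.65, 1.17, 0.82 and 1.0 and was detected throughout, with a mean of 0.91 ± 0.22 (SD, n = 4). Probe 2 (A_44_P457599) read -3.00, -3.46, -4.04 and -4.00 and was well above background on none. It was nevertheless marked by the software as positive and significant, a less strict flag, on all 4 arrays, and it lay above the brightest negative-control spot on each. A detected probe with an undetected partner was ordinary here, since 211 of 463 genes with 2 probes and a like brightest probe (45.6%) had 1 probe detected. Over all genes with 2 probes to the same transcript and at least 1 detected, that share was 35.1%, and with probes to different transcripts it was 43.8%.

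Cilia genes were detected in part, where the share for all named genes was 50.8%. Of 8 measured, 3 were detected on all 4 arrays, namely the dynein chain gene Dnai2 at -1.31 ± 0.02, the radial spoke gene Rsph1 at -1.83 ± 0.22 and Cfap126 at -1.37 ± 0.62 (SD, n = 4 for all), and the other 5 on none. Cfap126 ranged from -2.06 on replicate 2 to -0.56 on replicate 1. Both relatives Foxj2 (0.97 ± 0.26) and Foxj3 (4.08 ± 0.07), and the ciliary regulator gene Rfx2 (-1.75 ± 0.38), were detected (SD, n = 4 for all). Foxj3 rested on 1 of its 2 probes.

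Hopx, the alveolar type I marker, lay near the lower end of what the arrays detected. Probe 1 (A_44_P1148901) had levels of -2.19, -2.15, -2.80 and -2.15, detected on all 4 arrays, with processed intensities of 14.5 to 28.6. Probe 2 (A_44_P404591), on the same transcript, read -5.19, -5.21, -5.28 and -5.60 and met neither flag on any array. At this level an undetected partner was the usual outcome, in 171 of 199 comparable genes with 2 probes (85.9%). No alveolar type I companion was detected on all 4 arrays among 10 measured, against 50.8% of all named genes. Of the 10, 6, with the water channel gene Aqp5 and the podoplanin gene Pdpn, were detected on none. Nkx2-1, the homeobox factor that defines lung epithelium, was detected on 2 arrays.

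**Figure D2:**
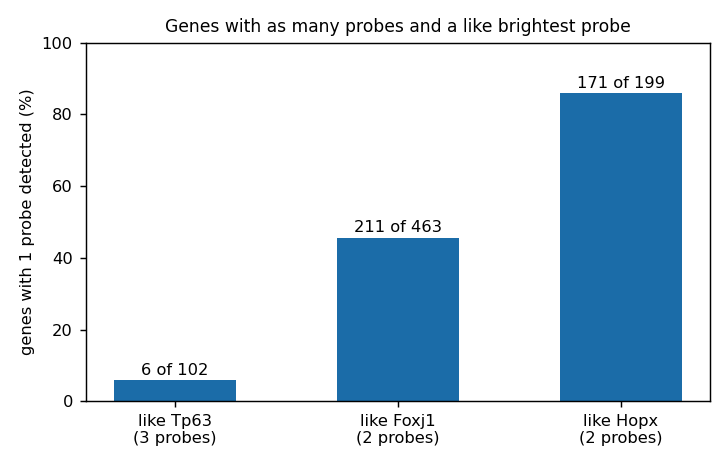
Share of genes with exactly 1 detected probe (vertical axis, per cent) among genes with as many probes as Tp63, Foxj1 or Hopx and a brightest detected probe within 1 log2 unit of it. The bars stand at 5.88%, 45.6% and 85.9%, for genes with 3, 2 and 2 probes, so that the first bar differs from the others in probe number as well as level.

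Elf3, the epithelial ETS factor, likewise lay near the lower end of what the arrays detected. Its single probe (A_64_P093899) was detected on all 4 arrays. The levels were -2.32, -2.24, -1.75 and -1.94, with a mean of -2.06 ± 0.26 (SD, n = 4). Its processed intensities were 19.9, 17.7, 30.0 and 33.2, against at most 3.92 for any negative-control spot. Replicates 3 and 4 were higher than replicates 1 and 2. Spots around it on the slide also differed between arrays. Relative to the mean of the other arrays, their medians were 0.06, -0.21, 0.08 and 0.26 on replicates 1 to 4. The Elf3 spot itself was at -0.34, -0.24, 0.41 and 0.17 on this scale. The part the surroundings have in the value was not tested.

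General epithelial genes were nearly all undetected, where 50.8% of all named genes were detected. Of 12 measured, 1 was detected on all 4 arrays, the membrane protease gene St14 at 4.13 ± 0.18 (SD, n = 4), and 10, including the adhesion genes Epcam and Cdh1, were detected on none. Among the ETS relatives of Elf3, the leukocyte and general members Elf1 (0.07 ± 0.24), Elf2 (1.69 ± 0.07) and Elf4 (-1.90 ± 0.54) were detected, and so was Spdef, a factor of secretory epithelium (1.31 ± 0.13; SD, n = 4 for all). The epithelial relatives Elf5 and Ehf were detected on no array by any of their probes.

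Etv5 was detected on all 4 arrays with little spread between them. Its single probe (A_44_P635089) had levels of 3.95, 3.75, 3.84 and 3.82, with a mean of 3.84 ± 0.08 (SD, n = 4) and processed intensities of 1129 to 1796. This SD was at the 17.7th percentile of 1435 detected probes of like level, but was 0.38 with the array median as the scale and 0.21 with normexp. Its close relative Etv4 was detected on no array, while Etv1 (-1.16 ± 0.47), Ets1 (-1.49 ± 0.21), Ets2 (4.86 ± 0.24) and Fli1 (4.08 ± 0.11) were detected (SD, n = 4 for all). Fli1, a factor of blood and endothelial cells, was detected by all 3 of its probes.

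Etv5 is known as a target of fibroblast growth factor and ERK signalling. Beside 50.8% of all named genes, 4 of 11 genes of that feedback loop (36.4%) were detected on all 4 arrays. They were the phosphatase gene Dusp6 at 3.89 ± 0.13, Dusp5 at -0.03 ± 0.30, the ERK pathway inhibitor gene Spred1 at -1.60 ± 0.29 and Phlda1 at -1.01 ± 0.17 (SD, n = 4 for all). Neither Spry2 nor Spry4, both feedback inhibitors, was detected on any array. Of 9 alveolar type II genes, 2 were detected, the aspartic protease gene Napsa at 5.68 ± 0.19 and the receptor gene Fgfr2 at 0.72 ± 0.32 (SD, n = 4 for both), Fgfr2 by 1 of 2 probes. The surfactant protein genes Sftpa1, Sftpb and Sftpc, which define these cells, were detected on none, and Sftpd, another surfactant protein gene, and the lipid enzyme gene Lpcat1 on 2 arrays each.

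Pax5, the B cell commitment factor, had levels of 0.32, 0.63, 0.72 and 0.74 from a single probe (A_64_P064099), with a mean of 0.60 ± 0.19 (SD, n = 4). Replicate 1 was the lowest and the other 3 lay close together. Of 7 other paired box genes measured, Pax3, a factor of neural crest and muscle, was detected at 5.25 ± 0.26 and Pax8, a factor of thyroid and kidney, at 1.38 ± 0.16 (SD, n = 4 for both), each by a single probe, and 4 were detected on no array.

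Ebf1, the partner of Pax5, is the one gene here with several detected probes. Probe 1 (A_42_P603573, on XM_006246117) had levels of 0.23, 0.20, 0.01 and 0.25, and probe 2 (A_44_P1362463, on NM_053820) had levels of -2.0, -1.98, -1.80 and -1.84. Both were detected on all 4 arrays. Probe 3 (A_44_P1369033, on XM_006246118) read -1.48, -1.65 and -1.74 on replicates 1 to 3 and was detected on each. Its spot on replicate 4, with an intensity of 179.6 against 35.6 at most on the other arrays, was marked as non-uniform and left out.

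Probe 4 of Ebf1 (A_64_P134235) read -2.46, -2.77, -2.50 and -2.35 and was detected on 3 arrays, all but replicate 2. Probe 5 (A_44_P1362468) read -4.89, -4.81, -4.81 and -3.40 and was detected on none. Probes 2, 4 and 5 are designed on the same transcript, with detection on 4, 3 and no arrays. By the less strict positive and significant flag, probes 2 and 4 were both marked on all 4 arrays and probe 5 on 2. Probe 4 also lay above the brightest negative-control spot on all 4 arrays. Only 3 other genes with 5 probes had a brightest probe of like level, too few to set a share against. The relatives Ebf2, Ebf3 and Ebf4 were detected on 1, 0 and 3 arrays.

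B cell genes that Pax5 and Ebf1 are known to activate were not detected with them. None of 11 measured was detected on all 4 arrays, against 50.8% of all named genes. Of the 11, 8 were detected on no array, and Cd79b, Cd22 and Pou2af1 on 1, 3 and 3 arrays. The 8 include the kinase gene Blk and the adaptor gene Blnk. In such a total RNA sample of a cell line, RNA from few of the cells and little RNA in every cell cannot be told apart.

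Dlx3, the homeobox factor of epidermis and placenta, varied between the arrays more than the other detected member probes. Its single probe (A_43_P15162) had processed intensities of 12511 on replicate 1, 57587 on replicate 2, 27833 on replicate 3 and 114913 on replicate 4. The levels were 6.98, 9.43, 8.11 and 9.82, with a mean of 8.58 ± 1.30 (SD, n = 4) and a range of 7.19-fold between the lowest and the highest array. The other 8 probes detected on all arrays ranged over 1.15-fold to 1.56-fold. Dlx3 was chosen for its spread on these same arrays, so this SD and its contrast with other probes are a description and no finding. The SD exceeded that of 99% of 300 detected probes of like level, whose median SD was 0.12.

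The surroundings of the Dlx3 spot did not differ between arrays as the spot did. The spots within 3 rows and columns had medians of 0.04, 0.02, 0.01 and -0.07 on replicates 1 to 4 relative to the mean of the other arrays, against -2.14, 1.12, -0.63 and 1.65 for the Dlx3 spot itself. The raw median signals were 10630, 50433, 25206 and 103314 over local backgrounds of 23 to 27, so that the order of the arrays was already present before background subtraction. No spot of any array was saturated.

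**Figure D3:**
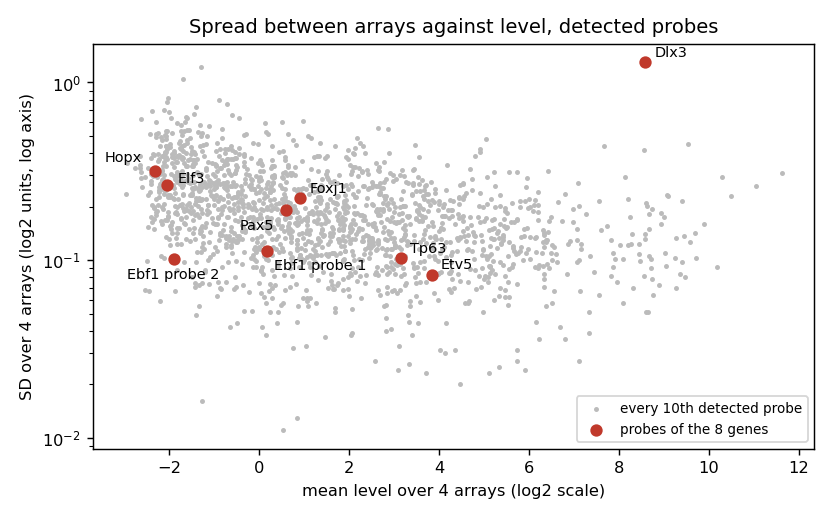
SD over the 4 arrays (vertical axis, log2 units on a log axis) against the mean level (horizontal axis, log2 scale) for every 10th detected probe, in grey, and the 9 detected probes of the 8 genes, in red. Dlx3 lies at an SD of 1.30 above the grey cloud, while the other 8 red points, with SDs from 0.08 to 0.32, lie within it.

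A small set of probes came near to the pattern of Dlx3 over the arrays. The named genes nearest to it, by the root mean square distance of centred levels over the 4 arrays, were Hmx1, a homeobox factor gene (0.34), Mapk3, which encodes the kinase ERK1 (0.35), Spacdr (0.53), the transcription termination factor gene Ttf2 (0.64) and Ptms, the parathymosin gene (0.66). Hmx1 had levels of 8.62, 10.70, 10.13 and 10.96 and Mapk3 8.83, 11.34, 9.93 and 10.87, with the lowest value of each on replicate 1 and the second lowest on replicate 3. Both rest on a single probe. Spacdr had levels of -2.57, -1.15, -1.03 and -0.14 and Ttf2 of -2.80, -1.53, -1.62 and -1.27, and Ptms had 7.28, 8.03, 7.78 and 8.77. Looking beyond named genes, a step added after the values were seen, 11 detected probes lay within a distance of 0.5 of Dlx3, of which 2 are named and 9 had a mean level above 6.

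The order of Dlx3, lowest on replicate 1, then 3, then 2, then 4, was shared by 532 of all other detected probes (3.11%). It was shared by 42 of 836 probes with a range over 1 log2 unit (5.02%) and by 13 of 60 with a range over 2 (21.7%), so that the higher share rests on these 13 probes. Of 1356 other detected probes with a mean level above 6, 18 (1.33%) had an SD above 0.5, and 16 of these 18 were lowest on replicate 1. With 1 group of 4 arrays, no label of the study goes with this order, and its source was not tested.

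**Figure D4:**
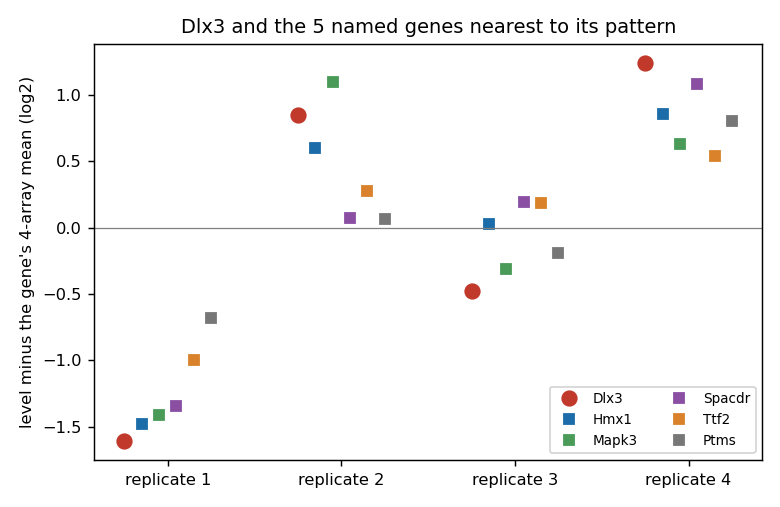
Level minus the gene's own mean over the 4 arrays (vertical axis, log2 units) on each replicate (horizontal axis) for Dlx3 and the 5 named genes nearest to its pattern, chosen for that likeness. All 6 were lowest on replicate 1.

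Few companions of Dlx3 were detected on all arrays, where 50.8% of all named genes were. Of the other distal-less genes, Dlx1 was detected at -2.14 ± 0.45 (SD, n = 4), Dlx4 on 1 array and Dlx2 and Dlx5 on none. Of 8 measured genes of epidermis and placenta, 2 were detected on all 4 arrays, the transglutaminase genes Tgm1 at 0.87 ± 0.10 and Tgm3 at -1.50 ± 0.42 (SD, n = 4 for both). Ivl, the gene of the cornified envelope protein involucrin, and Gcm1, a placental factor gene, were detected on no array.

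None of the other member probes detected on all 4 arrays stood out for a large spread. Against detected probes of like level, their SDs lay at percentile 26.4 for Tp63 probe 1, 57.2 for Pax5, 70.9 for Foxj1 probe 1, 56.5 for Hopx probe 1 and 43.8 for Elf3. Ebf1 probes 1 and 2, at percentiles 19.0 and 4.20, and Etv5, at 17.7, varied less than most probes of their level. Around the 16 member spots the neighbouring spots had medians between -0.30 and 0.30 relative to the other arrays, over 43 to 48 spots each.

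Detection was not limited to the 8 members among lineage factors. Of 34 measured factors of other lineages, 9 (26.5%) were detected on all 4 arrays, against 50.8% of all named genes. They include Sox9 at -0.97 ± 0.25, Sox10 at -1.31 ± 0.14, Foxa1 at -1.46 ± 0.17 and Pou5f1 at 0.66 ± 0.14 (SD, n = 4 for all), the first by 1 of 4 probes and Foxa1 by 1 of 2. Of 14 macrophage factors 11 were detected, and each of these 11 was detected by every probe it has. For those with a single probe, such as Spi1, this holds by definition. Among all genes with more than 1 probe and at least 1 detected, 40.0% had a probe that was not. Spi1, the PU.1 gene that directs macrophage fate, had a level of 3.20 ± 0.12, and Cebpb and Runx1, each with both probes detected, had 7.71 ± 0.19 and 5.05 ± 0.13 (SD, n = 4 for all).

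**Figure D5:**
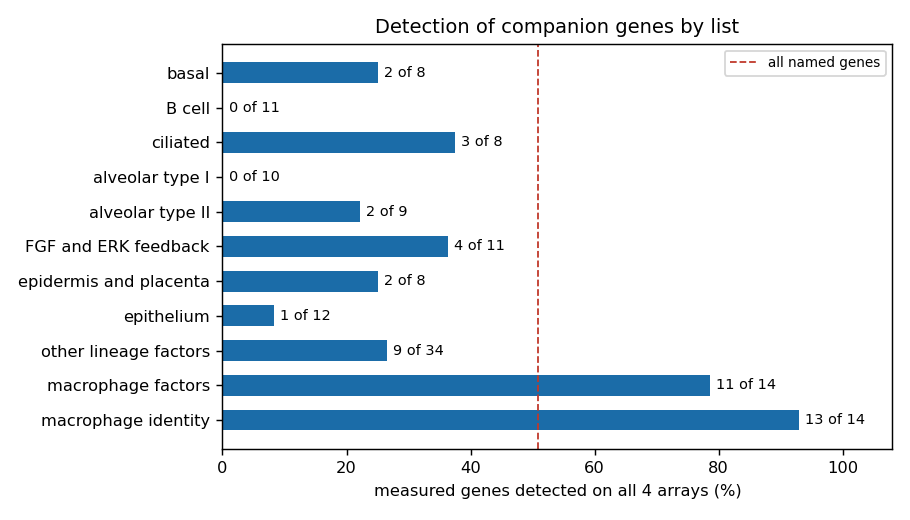
Share of the measured genes detected on all 4 arrays (horizontal axis, per cent) in the lists of companion genes, other lineage factors and macrophage genes, with counts beside the bars and the 50.8% of all named genes as a dashed line. The lists of family relatives are not drawn. With the well above background flag the 2 macrophage lists, at 11 of 14 and 13 of 14, lie to the right of the line and the other lists drawn to its left, while under both less strict detection rules the basal list, at 6 and 5 of 8, exceeds the share of all named genes.

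The 7 lists of lineage companions held 66 measured genes, and 10 of these (15.2%) were detected throughout, against 50.8% of all named genes. The lists were chosen with earlier results of these arrays known and no test was made on them. In the 8 lists of family relatives, 16 of 36 measured genes (44.4%) were detected.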

How the data were processed

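Total RNA of 4 cultures was labelled with Cy3 and hybridised to 1-colour Agilent rat arrays, 1 array per replicate, on 1 slide. The authors deposited linear spot intensities. Agilent Feature Extraction, version 11.0.1.1 in the submitters' processing notes, had subtracted the background from them but not scaled the arrays to each other, per the file headers. The headers name rn4 for the array design, and promoter coordinates are of GRCr8, from RefSeq. Each array has 62976 spots, 58717 of them non-control, for 45598 probes. Transcript accessions without versions were matched to the RefSeq gene table, which named 21109 probes. Each member probe is printed on 1 spot.

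Spots marked as non-uniform or population outliers were left out, from 750 to 1551 per array. Log2 signals were averaged per probe and the array's 75th percentile (intensities of 83.77 to 127.07) was subtracted. A gene was detected on an array when any of its probes was, and the probe with the highest mean gives its level. The members and all lists were chosen with earlier results of these data known. Up to 4 detected genes per list, in list order, and the 5 named genes nearest to a variable member are named. There is 1 group, so no test between groups was made and no p-value is given. The 308 negative-control spots reached an intensity of 3.92 at most. The steps were tested on simulated data. Some genes of the lists are not reported here. Software was Python 3.11.15, numpy 2.4.6, pandas 2.3.3, matplotlib 3.10.9, R 4.3.3 and limma 3.58.1.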

Additional observations from a re-analysis of the deposited data

Results flagged for a closer look

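Of 15 member probes measured on all 4 arrays, 2 had 1 array far from the other 3 by Dixon's criterion, which chance meets in about 1 of 20 groups of 4. Ebf1 probe 5 read -3.40 on replicate 4, against -4.81 to -4.89 on the others, with a gap of 0.947 of its range, and was well above background on none. Hopx probe 1 read -2.80 on replicate 3, against -2.15 to -2.19 on the others, with a gap of 0.933 of its range. The spots around Hopx probe 1 had a median of -0.19 on that array relative to the other arrays, against -0.63 for its own spot. Those around Ebf1 probe 5 had a median of -0.17 on replicate 4, against 1.44 for its own spot.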

How the results depend on the processing

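The 9 member probes detected on all 4 arrays became 11 with the positive and significant flag, 11 above the highest negative-control spot, 11 when 3 arrays sufficed and 10 with outlier spots kept, and 9 to 10 without 1 replicate. All 8 genes kept a detected probe under these settings. Members with every probe detected numbered 5 in place of 4 under the first 2 of these settings, through Foxj1 (the 4 being the single-probe genes), and 4 under the others. Detected lineage companions moved from 10 of 66 to 20, 18 and 16 under the first 3 settings, beside 61.7%, 60.0% and 54.0% of all named genes, and ranged from 10 to 14 without 1 replicate. The median level over the 16 probes, -1.98, ranged from -2.05 to -1.93 without 1 replicate, and moved to -5.39 with the 75th percentile over detected probes, 1.59 with the array median and -0.80 with normexp on the median signals. Those scalings moved the median of all detected probes by -3.41, 3.57 and -0.39. The median SD of the 16 probes, 0.21, ranged from 0.19 to 0.22 without 1 replicate, and moved to 0.39 with the array median and 0.12 with normexp. The SD of Dlx3 was between 0.90 without replicate 1 and 1.54 without replicate 3. Normexp on mean signals was not run, since median signals were used. Of the bright variable probes, 15 of 18 were lowest on replicate 1 under quantile normalization and 19 of 24 with normexp. No paired analysis was possible because there is 1 group.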

Other observations

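Tbx21, the T-bet factor gene of T helper and NK cells, was singled out after its values were seen. It had levels of 7.86, 8.12, 7.97 and 8.20 on replicates 1 to 4, from a single probe, with a mean of 8.04 ± 0.15 (SD, n = 4). The 4 arrays lay close together. Mitf, a factor of melanocytes that osteoclasts and other myeloid cells also use, was detected by both of its probes at 5.74 ± 0.31 for the brighter one (SD, n = 4).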
